A study of Mus musculus with 199 samples.

Results

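The 28 libraries described here each hold the RNA of 10 cells taken from spheroids of KP1, a mouse small-cell lung cancer line, and they were ordered by how much mitotic transcript they carried. They are 28 of the 199 libraries of the series. A mitotic score was computed for each library as the mean of log2(CPM + 1) over Mki67, Top2a, Cdk1, Ccnb1 and Cenpf, where CPM is a gene's counts scaled to a common library total, taken over all genes without the ERCC spike-in transcripts. The 14 libraries with the highest score were set against the 14 with the lowest. Libraries were thus chosen by the measured values of these 5 genes, which, like the score itself, are given as a description only and were left out of the tests across genes.

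KP1 cells carry the genotype Rb1-/-Trp53-/-, which the high and the low libraries share, so all of the cells lack both tumour suppressors. Spheroids were frozen, cut at 8 µm and sampled by laser capture microdissection, after which the polyadenylated RNA was copied to cDNA, amplified by PCR and made into Nextera libraries. Sets used beside them were 20 pool-and-split libraries of KP1 spheroids, which control for the spread of the method, and 24 libraries of 10 cells from spheroids of RPC, a pre-cancerous mouse line with the genotype Rb1-/-Trp53-/-p130-/+Crebbp-/-. No treatment, time point or animal age is labelled for these spheroid groups. High and low are sets made by rank within 1 labelled group, each line is a single genotype, and how many spheroid cultures the captures came from is not given in the sources used here. The p-values therefore speak for captures of 10 cells, and they are too small if captures share a culture.

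Mitosis is the stage at which replicated chromosomes are condensed, attached to a spindle through their kinetochores and pulled apart. Many of its transcripts accumulate only in G2 and mitosis and are degraded afterwards, so that their level in a few cells follows how many of those cells are near division. Their promoters often carry a CHR element, a cell cycle homology region often read TTTGAA, to which the MuvB core complex binds, together with CCAAT boxes bound by NF-Y. Rb1 and Trp53 both restrain these genes, and small-cell lung cancer is known for rapid division. In a capture of 10 cells, more dividing cells and more mitotic RNA in each cell cannot be told apart.

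The promoters of 2 score genes and of Ube2c, the mitotic gene outside the score described most closely, are shown because they carry both or only the CCAAT motif. Each is 300 bases of RefSeq sequence on GRCm38.p6, 5′ to 3′ along the gene's strand, and runs from upstream of the annotated start to just past it. Capitals mark TTTGAA and CCAAT on either strand, that is also TTCAAA and ATTGG, which can share letters as in CCAATTGG. Cdk1 lies at chr10:69352863-69353162 on the minus strand, Ccnb1 at chr13:100786437-100786736 on the minus strand and Ube2c at chr2:164769679-164769978 on the plus strand.
Cdk1: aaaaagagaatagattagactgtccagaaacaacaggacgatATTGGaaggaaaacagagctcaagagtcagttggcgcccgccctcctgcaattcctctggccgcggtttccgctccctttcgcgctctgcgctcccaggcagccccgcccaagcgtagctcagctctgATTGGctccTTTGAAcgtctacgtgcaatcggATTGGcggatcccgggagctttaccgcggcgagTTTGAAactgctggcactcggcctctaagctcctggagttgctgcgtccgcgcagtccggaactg
Ccnb1: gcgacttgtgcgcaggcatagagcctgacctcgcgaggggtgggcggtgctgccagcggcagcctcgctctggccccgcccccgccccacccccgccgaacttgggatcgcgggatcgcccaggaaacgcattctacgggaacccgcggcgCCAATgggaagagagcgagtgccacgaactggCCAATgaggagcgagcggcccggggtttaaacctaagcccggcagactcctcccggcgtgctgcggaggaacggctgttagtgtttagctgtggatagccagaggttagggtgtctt
Ube2c: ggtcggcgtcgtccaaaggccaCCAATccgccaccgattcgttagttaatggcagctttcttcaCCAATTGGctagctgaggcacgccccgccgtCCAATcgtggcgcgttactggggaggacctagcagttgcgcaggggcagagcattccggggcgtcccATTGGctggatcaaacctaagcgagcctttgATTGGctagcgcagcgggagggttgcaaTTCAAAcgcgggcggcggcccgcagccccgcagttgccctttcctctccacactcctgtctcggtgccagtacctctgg
TTTGAA was found in 4 of the 5 score gene promoters, Ccnb1 being the exception, and CCAAT in 5 of 5. Only these exact letters were searched, so Ccnb1 is not shown to lack a CHR element. Of all 32851 mouse promoters of this length, 17.9% held TTTGAA, 37.4% CCAAT and 6.95% both. Among 74 promoters of the 4 mitotic gene lists described further on, which matched 66 of their 80 members, 60.8% held TTTGAA, 73.0% CCAAT and 48.6% both. The 351 tested genes with both motifs in 1 promoter had a median log2 fold change of 0.025 between high and low libraries, beside 0.0025 over the 5556 tested genes with a promoter sequence. For members of the mitotic lists the median was 0.24 over the 33 tested with both motifs, beside 0.28 over all 60 tested with a promoter sequence. A match to these letters is a description of the sequence and not a binding site.

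The score ran from 7.79 to 8.97 in the high libraries, with a median of 8.41, and from 5.20 to 7.64 in the low libraries, with a median of 6.86. The mean was 8.30 ± 0.377 (SD, n = 14) against 6.88 ± 0.679 (n = 14). At the split, the lowest high library (replicate 27) had 7.795 and the highest low library (replicate 1) had 7.639. The low libraries were not empty of mitotic transcript: each of the 5 genes had counts in all 28 libraries.

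**Figure D1:**
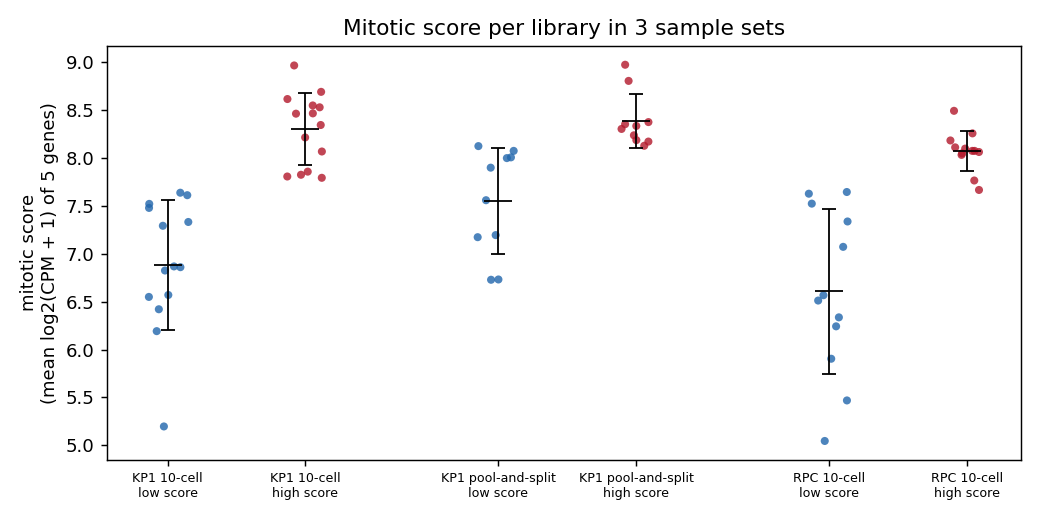
Mitotic score of each library (vertical axis, mean log2(CPM + 1) of 5 genes) in the low and high libraries of 3 sample sets, with mean ± SD as black bars. The KP1 10-cell libraries span 5.20 to 8.97, and the groups were made by this axis, so their separation is not a result.

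The 5 genes did not move as a block. Ccnb1, the cyclin that activates Cdk1 for entry into mitosis, had 101, 273 and 656 CPM (lowest, median and highest) in the high libraries and 14.7, 112 and 189 CPM in the low ones, and 11 of 14 high libraries lay above every low library. Cdk1, the kinase it activates, had 81.9, 225 and 394 CPM against 9.27, 69.2 and 141 CPM, with 10 of 14 high libraries above every low one. Cenpf, a large kinetochore protein made in G2, had 45.4, 182 and 389 CPM against 6.49, 46.7 and 198 CPM, and here 5 of 14 high libraries lay above every low one. Top2a, the topoisomerase that untangles chromosomes, overlapped widely, with 169, 484 and 1202 CPM against 34.6, 304 and 593 CPM. Mki67, the coat protein of mitotic chromosomes, overlapped as widely, with 358, 822 and 1625 CPM against 178, 487 and 1200 CPM.

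By library, 5 of the 14 high libraries had all 5 genes above the median of the 28, and 9 had at least 1 gene below it. Of the low libraries, 3 had none of the genes above that median and 11 had at least 1 above it. The library with the highest Top2a (replicate 18, 1202 CPM), for example, had the lowest Cenpf of the high libraries (45.4 CPM). The split is a split of an average, in which Ccnb1 and Cdk1 overlapped less between the groups than Mki67 and Top2a.

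**Figure D2:**
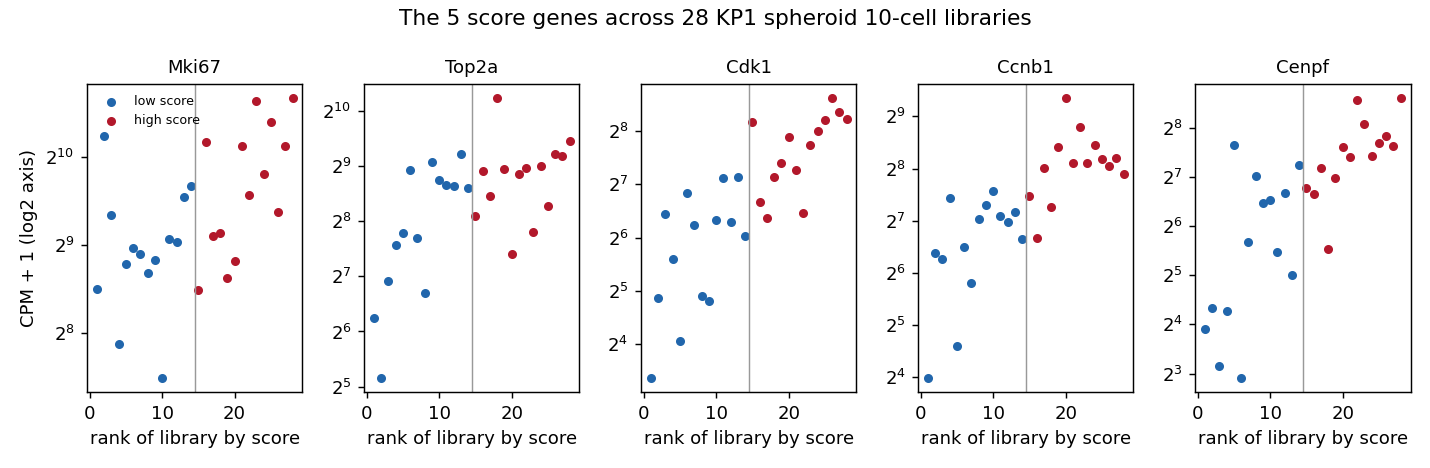
CPM + 1 (log2 axis) of each score gene against the rank of the library by score (1 lowest, 28 highest), with the 14 low libraries in blue and the 14 high in red. Cdk1 and Ccnb1 separate the colours most, while Mki67 and Top2a overlap across the grey line at the middle rank.

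The score of the 10-cell libraries stands here beside that of the pool-and-split controls, with no test, because the same scores made the split. It was 7.59 ± 0.901 (SD, n = 28) in 10-cell libraries and 7.97 ± 0.606 (n = 20) in the controls, and the mean absolute deviation from the group median was 0.709 and 0.419. Control libraries with at least 0.1% ERCC counts scored 7.23 ± 0.491 (n = 6) and those with less scored 8.29 ± 0.292 (n = 14), so the ERCC share moves with the score within the controls. Among libraries with less than 0.1% ERCC counts, 19 from 10 cells and 14 controls, the deviation was 0.674 and 0.200, and the means were 7.71 ± 0.831 and 8.29 ± 0.292.

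Before the gene results, the libraries themselves were compared. Gene counts per library ran from 3775229 to 5308787 over the 28 libraries, with 3662447 to 5830589 in the controls and 3485529 to 7557773 in RPC. High and low libraries held 4 and 5 libraries with at least 0.1% ERCC counts. Neuroendocrine tumour cell markers were present in both groups (Chga 565 ± 119 and 504 ± 239 CPM, Chgb 210 ± 118 and 171 ± 122 CPM), although Syp, another such marker, was close to 0 (0.989 ± 1.75 and 2.90 ± 5.28 CPM). Of 16 markers of hepatocytes, leukocytes, fibroblasts, endothelium and red cells, 8 had 0 counts in all 28 libraries, Alb, Ptprc, Col3a1 and Cdh5 among them. The macrophage marker Cd68 had counts in 7 high and 9 low libraries, up to 15.3 and 138 CPM, and Ttr, of hepatocytes, in 3 and 5, up to 62.7 and 83.2 CPM. The summed level of the 16 ran from 0 to 78.8 CPM in high and from 0 to 138 CPM in low libraries. Low replicate 23 had the fewest genes detected at a common depth (6745) and the highest mitochondrial share (8.70%) of the 28 libraries. It also held the extreme value of some single genes, which are given below.

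Outside the score genes, no gene passed the test between high and low libraries. By edgeR's quasi-likelihood test with Benjamini-Hochberg adjustment, 0 of 7192 genes were called (0.0%), and the smallest adjusted p was 0.174. At an unadjusted p under 0.05 there were 599 genes (8.33%), of which 261 were higher (3.63%) and 338 lower (4.7%) in high libraries. DESeq2 called 34 genes (0.473%, 19 higher and 15 lower), limma-voom called 1, and edgeR with the score as a continuous covariate called 37 (1 higher and 36 lower), while edgeR with no filter on low counts called 1315 of 17172. The median log2 fold change over all genes was -0.01 with TMM scaling, and it was 0.20 when libraries were scaled by their totals alone, where 413 genes were higher and 149 lower at an unadjusted p under 0.05. Fold changes below use TMM and are to be read against a median near 0. CPM values are not TMM-scaled, so the ratio of CPM means can differ from the fold change. The TMM factor averaged 1.12 ± 0.335 in high and 0.944 ± 0.182 in low libraries, so CPM alone favour the high ones.

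The 4 lists of mitotic genes outside the score had medians above that of all genes, and no member was called. With each of the 28 libraries left out in turn the medians ran from 0.09 to 0.46 for spindle genes, 0.03 to 0.27 for kinetochore genes, 0.36 to 0.55 for kinases and cyclins and 0.16 to 0.39 for the anaphase-promoting complex, while that of all genes ran from -0.04 to 0.03. Single libraries thus moved 3 of these medians by over 1.5 times, and the kinetochore median came close to that of all genes. Scaled by library totals, the medians were 0.53 for spindle genes, 0.35 for kinetochore genes, 0.63 for kinases and cyclins and 0.42 for the anaphase-promoting complex, beside 0.20 for all genes. Members are named here as the 3 with the highest mean CPM in each list, or, chosen after their values were seen, for an unadjusted p under 0.05 or as well-known members. Lists are described by counts and medians beside those of all 7192 genes, of which 49.1% had a positive log2 fold change.

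Spindle motors and microtubule proteins, which build and move the spindle, had 25 of 28 members tested, a median log2 fold change of 0.30, 18 members above 0, and 3 above and 0 below 0 at an unadjusted p under 0.05. The median was 0.09 without replicate 22, 0.19 without replicate 9 and 0.46 without replicate 23, and the count of 3 ran from 2 to 5 over the single libraries left out. Kif2c, a kinesin that takes microtubules apart at kinetochores, had 0.841, 51.5 and 273 CPM in high and 0, 2.94 and 77.4 CPM in low libraries (log2 fold change 2.18, SE 0.89, edgeR adjusted p 0.53). Hmmr, a spindle pole protein, had 3.79, 78.0 and 286 CPM against 1.44, 23.2 and 90.9 CPM (1.33, SE 0.58, edgeR adjusted p 0.549). Anln, a scaffold of the cleavage furrow, averaged 36.3 ± 35.9 against 7.19 ± 9.64 CPM. For these 3 genes the highest values were in high libraries and the lower parts of the ranges overlapped. The most abundant member, Stmn1, which binds free tubulin, had 2581 ± 1192 against 1769 ± 650 CPM, with a log2 fold change of 0.30, and Tpx2, which activates Aurka on the spindle, had 206 ± 165 against 183 ± 119 CPM.

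Kinetochore and spindle checkpoint genes, which attach chromosomes and delay their separation, had 20 of 21 members tested, a median of 0.10 and 12 members above 0, with 0 above and 1 below 0 at an unadjusted p under 0.05. The median moved by over 1.5 times without any of replicates 2, 8, 10, 11, 13, 16, 17, 22, 23 and 28, lowest without replicate 22 (0.03) and highest without replicate 10 (0.27). Over the single libraries left out, 0 to 2 members were above and 0 to 1 below 0 at that p. The member below 0 was Bub1, a checkpoint kinase, with 0.724, 48.8 and 116 CPM in high and 8.79, 47.4 and 1069 CPM in low libraries (log2 fold change -1.74, SE 0.63, edgeR adjusted p 0.442). The medians were alike, and the highest value came from low replicate 23, without which the log2 fold change was -0.11. Its partner Bub1b had 118 ± 83.7 CPM in high and 44.5 ± 69.5 CPM in low libraries (log2 fold change 1.29), and 27.3 ± 26.7 CPM in low libraries without replicate 28. The centromeric histone Cenpa had 228 ± 129 against 188 ± 141 CPM (log2 fold change 0.07). Bub3, the checkpoint adaptor, had 332 ± 118 against 263 ± 111 CPM (0.14). Their ranges overlapped widely, from 46.3 to 405 against 13.3 to 494 CPM for Cenpa and from 100 to 560 against 93.3 to 490 CPM for Bub3.

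Mitotic kinases, cyclins and the chromosomal passenger complex had the highest median of the mitotic lists, 0.45, with 19 of 21 members tested, 15 above 0, and 2 above and 1 below 0 at an unadjusted p under 0.05. With single libraries left out, 1 to 4 members were above and 0 to 2 below 0 at that p. Cks1b, a small subunit of Cdk complexes, had 83.8, 215 and 616 CPM in high and 1.41, 121 and 371 CPM in low libraries (log2 fold change 1.00, SE 0.42, edgeR adjusted p 0.543), and 4 of 14 high libraries lay above every low one. Pbk, a mitotic kinase, averaged 157 ± 126 against 55.6 ± 55.6 CPM. Aurkb, the passenger complex kinase, averaged 120 ± 92.3 against 45.6 ± 35.5 CPM (log2 fold change 1.20) and Aurka, the spindle pole kinase, 90.5 ± 66.3 against 38.4 ± 19.8 CPM (0.83). Plk1 differed less, with 73.5 ± 48.4 against 47.3 ± 39.3 CPM.

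The same list also held members on the other side of 0. Ccnb2, the second B-type cyclin, had 168 ± 87.6 CPM in high and 208 ± 128 CPM in low libraries (log2 fold change -0.69). Cdc25b, a phosphatase that activates Cdk1, had 14.3, 139 and 396 CPM against 81.6, 145 and 1661 CPM (-1.07, SE 0.48, edgeR adjusted p 0.568). Its highest value was again in low replicate 23, and without that library the log2 fold change was -0.02. Replicate 23 also had the lowest level of Cks1b (1.41 CPM) and of the passenger complex subunit Cdca8 (2.82 CPM), whose lowest level among high libraries was 116 CPM.

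The anaphase-promoting complex and its partners, which destroy cyclins so that mitosis can end, had 10 of 10 members tested, a median of 0.25, 7 above 0, and 2 above and 0 below 0 at an unadjusted p under 0.05. The median was 0.16 without replicate 11 and 0.39 without replicate 4, and the count of 2 ran from 1 to 3 over the single libraries left out. Ube2c, the ubiquitin-conjugating enzyme of the complex, whose promoter is printed above, had 14.0, 139 and 461 CPM in high and 18.3, 51.8 and 165 CPM in low libraries. The medians were far apart and 6 of 14 high libraries exceeded every low one, but the lowest value of all belonged to a high library. Its mean was 168 ± 120 against 62.5 ± 46.6 CPM (log2 fold change 1.19, SE 0.41, edgeR adjusted p 0.407, and 0.0644 to 0.723 over the alternatives). Fzr1, an activator of the complex after mitosis, averaged 103 ± 69.3 against 42.5 ± 34.4 CPM, while Cdc20, its activator in mitosis, averaged 295 ± 139 against 230 ± 180 CPM (log2 fold change 0.24).

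**Figure D3:**
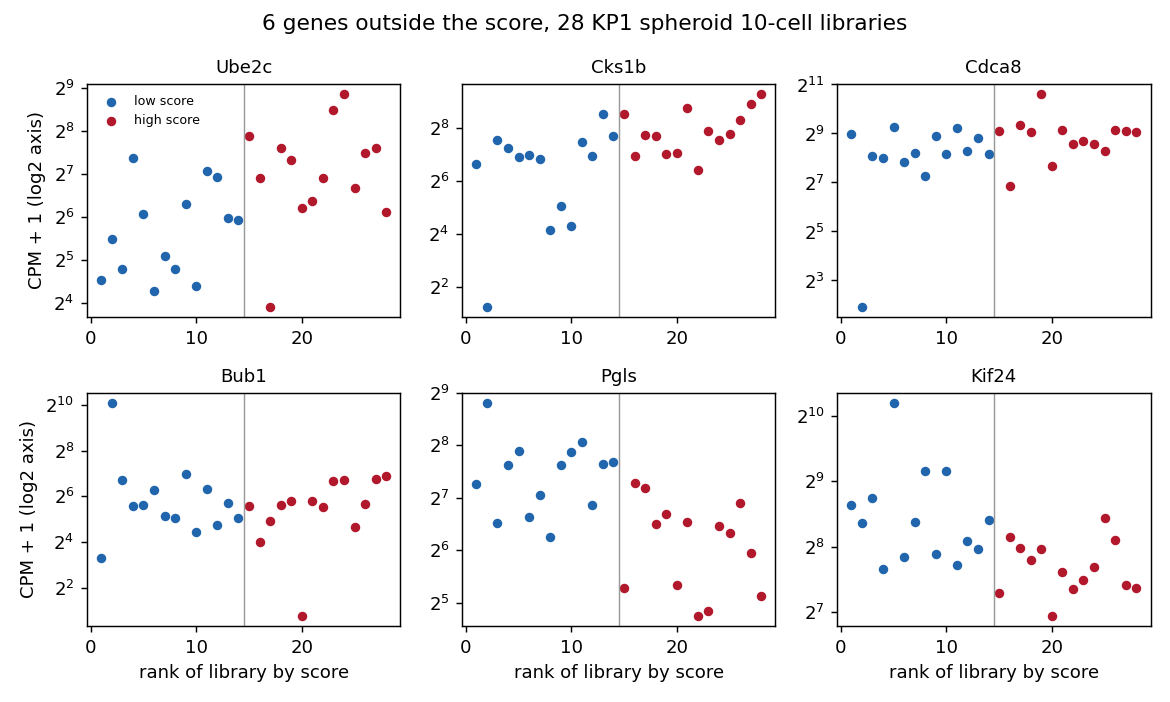
CPM + 1 (log2 axis) of 6 genes outside the score against the rank of the library by score, low libraries in blue and high in red. Ube2c and Cks1b overlap across the middle line, Bub1 has 1 low library at 1069 CPM, Pgls has 8 low libraries above every high one, and Kif24 overlaps between the groups, with 5 low libraries above every high one.

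Chromatin genes of dividing cells were close to the background, with 20 of 21 members tested, a median of 0.08 (0.04 to 0.18 with single libraries left out) and 12 above 0. Hmgb1, an abundant DNA-bending protein, averaged 92.2 ± 51.5 against 40.3 ± 23.8 CPM (log2 fold change 1.00) and Hmgn2, a nucleosome-binding protein, 3446 ± 587 against 3770 ± 964 CPM (-0.40), both at an unadjusted p under 0.05 and neither called. The histone variant H2afz had 3344 ± 784 CPM in high and 2486 ± 793 CPM in low libraries, a log2 fold change of 0.12 with TMM scaling.

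DNA replication and S phase genes had 53 of 56 members tested, a median of 0.21 and 33 above 0, with 3 above and 2 below 0 at an unadjusted p under 0.05. The median was 0.12 without replicate 2, 0.13 without replicate 22 and 0.14 without replicate 27, and 1 to 4 members were above and 1 to 3 below 0 at that p with single libraries left out. Cdc6, which loads the replicative helicase, had the largest fold change among them (log2 fold change 3.52, SE 1.10, edgeR adjusted p 0.37), but its medians were 2.79 and 0.907 CPM and the difference of the means, 27.6 ± 58.1 against 2.24 ± 2.57 CPM, lay in a few high libraries, up to 215 CPM. Mcm3, a helicase subunit, averaged 95.1 ± 120 against 36.7 ± 30.0 CPM, and Mcm6, another, 592 ± 333 against 625 ± 161 CPM. The single-strand binding subunits went apart, Rpa1 with 34.7 ± 58.3 against 5.23 ± 3.74 CPM and Rpa2 with 167 ± 101 against 249 ± 127 CPM. The medians of Rpa1 were 13.9 and 5.35 CPM, and its high mean was 21.9 ± 34.5 CPM without replicate 8, which had 201 CPM. Tyms, the thymidylate synthase, had 538 ± 259 against 385 ± 193 CPM.

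Genes of G1 and growth arrest were mostly low, and 13 of 24 were tested, with a median of 0.09 that ran from -0.04 to 0.39 with single libraries left out. The Cdk4 and Cdk6 inhibitor Cdkn2c averaged 102 ± 77.7 CPM in high and 35.7 ± 30.3 CPM in low libraries (log2 fold change 1.29, SE 0.55, edgeR adjusted p 0.543). The p53 target and Cdk inhibitor Cdkn1a averaged 11.5 ± 17.1 against 6.86 ± 6.55 CPM (7.16 ± 5.78 in high libraries without replicate 11), Cdkn1b 8.82 ± 10.1 against 7.03 ± 5.36 CPM, and Ccnd1 had counts in 1 of the 28 libraries. No arrest gene was called higher in low libraries. Tubulins and Myc family genes had a median of -0.15 (-0.27 to 0.11 with single libraries left out), with Tuba1b, the member at an unadjusted p under 0.05, at 2879 ± 1044 against 3631 ± 1280 CPM (log2 fold change -0.56, edgeR adjusted p 0.476). Neuroendocrine genes had a median of 0.16 (0.03 to 0.25 with single libraries left out) over 21 tested members and 0 at an unadjusted p under 0.05. With single libraries left out, 0 to 2 of them were above and 0 below 0 at that p.

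**Figure D4:**
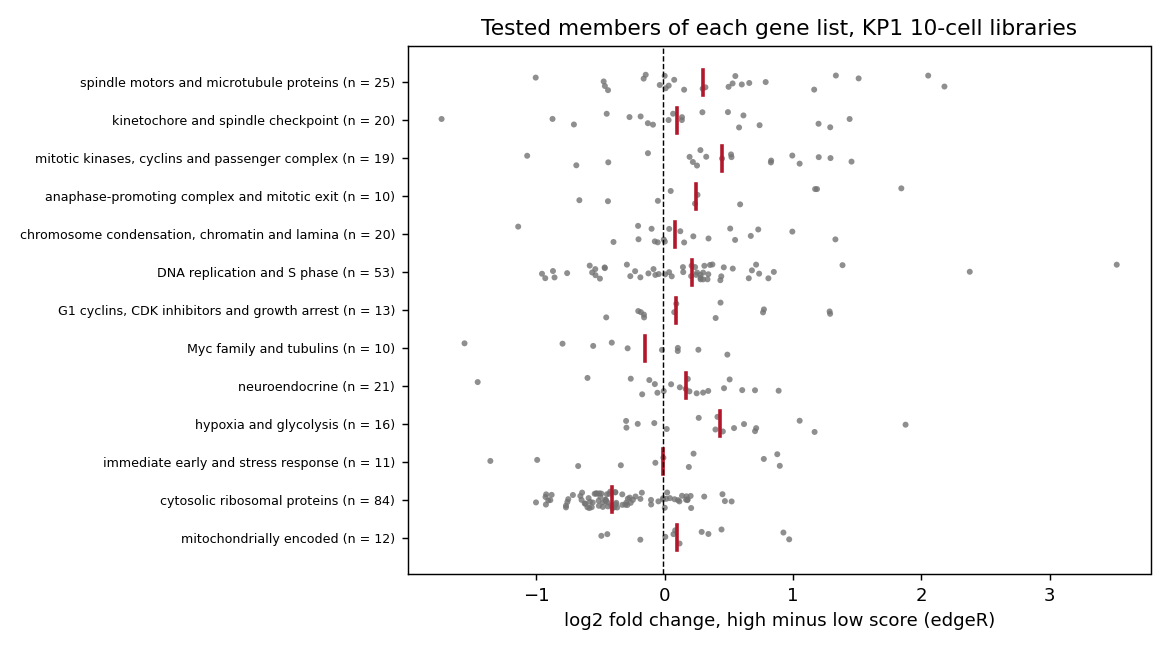
Log2 fold change, high minus low score (horizontal axis), of each tested list member (grey points) in the 28 KP1 10-cell libraries, with list medians in red and the median of all 7192 genes as a dashed line. Kinases and cyclins have a median of 0.45 and ribosomal proteins of -0.41, and no point passed the adjusted threshold.

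Hypoxia and glycolysis genes had a median of 0.43 over 16 tested members, 12 of them above 0, but without replicate 11 the median was 0.04. Ldha, lactate dehydrogenase A, had 114, 264 and 1594 CPM in high and 8.82, 146 and 389 CPM in low libraries (log2 fold change 1.17, SE 0.40, edgeR adjusted p 0.406), and 5 of 14 high libraries exceeded every low one. Gapdh, by contrast, averaged 1899 ± 989 against 1966 ± 660 CPM. The list's median was -0.51 in the controls and -0.48 in RPC (-0.65 to -0.18 with single RPC libraries left out), where Pkm was called lower. Stress genes had a median of -0.01 over 11 tested members (-0.07 to 0.32 with single libraries left out). Mitochondrial genes had a median of 0.10 over 12 tested members (0.05 to 0.22 with single libraries left out), 9 of them above 0. The only member at an unadjusted p under 0.05, mt-Co1, averaged 2457 ± 2582 against 1001 ± 530 CPM (log2 fold change 0.93, SE 0.28, edgeR adjusted p 0.37), a mean that included 1 high library at 10927 CPM.

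Ribosomal protein genes, whose products form the cytosolic ribosome, were the list furthest below the background. Of 84 tested members 66 had a log2 fold change below 0, the median was -0.41, and 31 were lower and 0 higher at an unadjusted p under 0.05 (36.9% of the list, where 4.7% of all genes were lower). None was called. Rplp1, a protein of the ribosomal stalk, had 2065, 6801 and 9222 CPM in high and 4839, 8633 and 17991 CPM in low libraries (log2 fold change -0.77, SE 0.26, edgeR adjusted p 0.407). Rps15, of the small subunit, had 920, 3679 and 5435 CPM against 3335, 5356 and 8433 CPM, with 7 of 14 low libraries above every high one. With the score as a continuous covariate, edgeR called 8 ribosomal proteins lower of 36 lower calls in all (0.501% of genes), and 0 members of the mitotic lists. Many ribosomal protein genes have near-identical pseudogenes among which reads may have been split, so single values are uncertain.

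**Figure D5:**
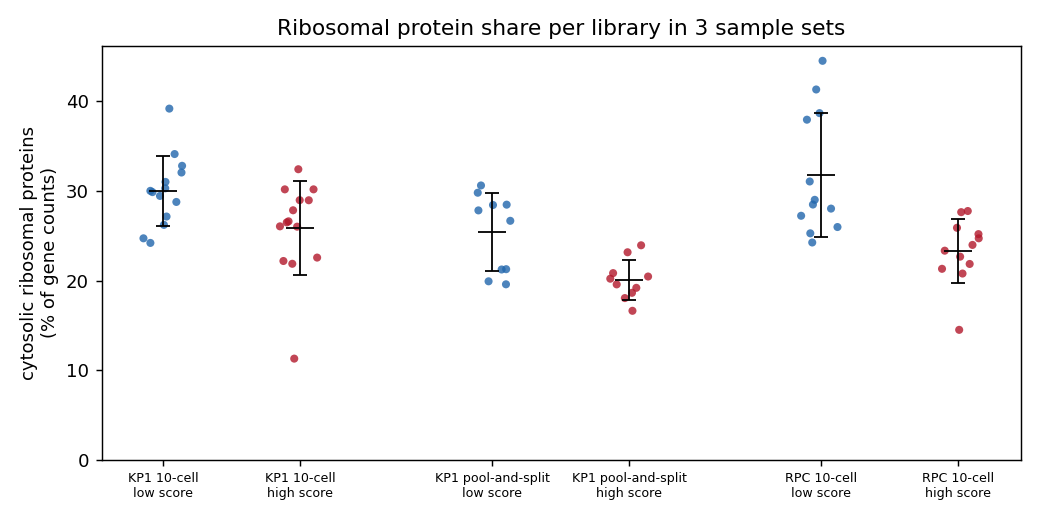
Share of gene counts from cytosolic ribosomal protein genes (vertical axis, %) in each library by score level in 3 sample sets, with mean ± SD as black bars. High libraries lie lower on average in each set, with 1 KP1 high library at 11.3%, and in the controls 6 of the low libraries but none of the high ones had at least 0.1% ERCC counts.

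Summed over the list, ribosomal proteins took 11.3, 26.5 and 32.4% of gene counts in high and 24.2, 29.9 and 39.2% in low libraries. The ranges overlapped. The means were 25.8 ± 5.24 and 30.0 ± 3.93%, a difference of -4.16 percentage points (two-sided permutation test, p = 0.0177, adjusted over 5 library measures 0.0883). Without the high library at 11.3% (replicate 5) the difference was -3.04 (permutation p = 0.0388). Within libraries with less than 0.1% ERCC counts it was -3.83 (exact permutation p = 0.0872) and within the others, 4 against 5, it was -4.16 (exact permutation p = 0.143). No library changed side when the score was computed from counts without ribosomal proteins. The other measures were not distinguishable: 9843 ± 1302 and 9468 ± 1100 genes were detected at 3485459 counts (adjusted p 0.525), mitochondrial genes took 5.58 ± 1.47 and 4.97 ± 1.77% (adjusted p 0.525), and the gene total and ERCC share had adjusted p of 0.381 and 0.704 (permutation tests).

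The count of 31 lower ribosomal proteins ran from 14 to 41 when single libraries were left out, and it moved by over 1.5 times without low replicates 17 (14) and 26 (20) and without high replicates 20 (17) and 21 (19). The list median stayed between -0.47 and -0.31. With scaling by library totals alone the median was -0.22 beside 0.20 for all genes, with 4 members higher and 24 lower at an unadjusted p under 0.05.

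Transcript length moved with the fold change as well. Genes whose longest GENCODE transcript is at most 1000 nt had a median log2 fold change of -0.27 (507 genes), and those above 5000 nt one of 0.02 (1591 genes). Between them the medians were -0.06 up to 2000 nt (1193 genes), -0.01 up to 3000 nt (1423 genes) and 0.04 up to 5000 nt (2466 genes). Without ribosomal proteins the shortest class still had -0.24. The same class had -0.40 in the controls and -0.51 in RPC. The score genes are long, from 2489 nt (Ccnb1) to 11130 nt (Cenpf). The median ribosomal protein is 1049 nt, which lies in the class up to 2000 nt and not in the shortest one. Whether length has a part in the differences was not tested.

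Among the genes with the smallest p-values were some outside the mitotic lists, and those named here were picked after their values were seen. Lsm1, a subunit of the complex that starts mRNA decay, had 0.241, 16.1 and 161 CPM in high and 0.265, 1.99 and 7.33 CPM in low libraries (log2 fold change 3.67, SE 0.80, edgeR adjusted p 0.174). In 9 of 14 high libraries it lay above every low one, and the rest overlapped. Tcaf1 averaged 85.0 ± 81.6 against 15.0 ± 11.9 CPM, with 11 of 14 high libraries above every low one. On the other side, Pgls, an enzyme of the pentose phosphate pathway, had 26.0, 83.5 and 154 CPM against 75.0, 196 and 445 CPM (-1.53, SE 0.36, edgeR adjusted p 0.197), and 8 of 14 low libraries lay above every high one. Kif5a, a kinesin heavy chain of neurons, averaged 19.5 ± 21.0 against 77.1 ± 48.1 CPM, with 10 of 14 low libraries above every high one.

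Abhd2, Kif24, Zfp575 and Gm11127 had log2 fold changes of -1.35, -1.12, -0.98 and -1.09 and are uncertain. Low replicate 4 was the highest library for each of them. Their GENCODE transcripts share stretches of sequence, with 400 common 31-mers between Abhd2 and Kif24 on the same strand, 194 between Gm11127 and Zfp575, and 107 to 151 between the other pairs on opposite strands, so reads may have been split among them. Kif24 is therefore not counted here as a kinesin result. In RPC the same 4 genes had log2 fold changes of -2.00, -1.92, -3.37 and -4.75, and all but Abhd2 were called.

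The same split was made in the pool-and-split controls, 10 high against 10 low. By edgeR, 1 of 7739 genes was called (0.0129%), Rffl, and 717 had an unadjusted p under 0.05. Of the low control libraries 6, and of the high ones none, had at least 0.1% ERCC counts, so the score level and the ERCC share cannot be fully told apart there. With a term for the ERCC class, at least or under 0.1%, 0 genes were called and 180 had an unadjusted p under 0.05. That contrast rests on the 10 high and 4 low controls with less than 0.1%. Medians were 0.05 for spindle genes, 0.24 for kinetochore genes, 0.41 for kinases and cyclins, -0.22 for the anaphase-promoting complex and 0.06 for S phase genes, beside -0.04 for all genes, and these were not recomputed with single control libraries left out. Ribosomal proteins had a median of -0.62, with 61 of 84 lower at an unadjusted p under 0.05 (5.26% of all genes). Their share was 20.1 ± 2.22% in high and 25.4 ± 4.36% in low controls (permutation test, adjusted p 0.0214), but among the controls with less than 0.1% ERCC counts, 10 against 4, the difference was -0.436 (exact permutation p = 0.709). Ube2c had 234 ± 78.7 and 147 ± 102 CPM there.

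Tested directly, the high-low contrast differed between 10-cell and control libraries for 3 of 9781 genes by edgeR (0.0307%), Rffl, Tspyl4 and Tph1, none of them a list member, and for 619 at an unadjusted p under 0.05. With each of the 48 libraries left out in turn, Rffl was called every time, while 11 libraries ended the call of Tph1 and 8 that of Tspyl4, which in 7 of these fits no longer passed the filter on low counts. No member of the mitotic, S phase or ribosomal lists was called in this test. For Ube2c the difference of the contrasts was 0.73 on the log2 scale (SE 0.55, edgeR adjusted p 0.913) and for Kif2c 2.91 (SE 1.30, edgeR adjusted p 0.731). These intervals are wide and do not show that the contrasts were alike.

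RPC spheroids, cells that the split did not use, were divided into 12 high and 12 low libraries. EdgeR called 57 of 8479 genes (0.672%), 4 higher (0.0472%) and 53 lower (0.625%), and 28 of the lower calls were among the 82 tested ribosomal proteins. No member of the mitotic or S phase lists was called. Ribosomal proteins had a median log2 fold change of -1.01 and 2 of 82 members above 0. Rplp1, for example, had a log2 fold change of -1.31 with TMM scaling in RPC (edgeR adjusted p 0.0368). Its CPM, which are not TMM-scaled, were 5452 ± 1617 in high and 8603 ± 3289 in low libraries, a smaller difference. Their summed share was 23.3 ± 3.59% in high and 31.8 ± 6.91% in low libraries (permutation test, adjusted p 0.0011), and each level had 11 of 12 libraries with at least 0.1% ERCC counts. Medians were 0.36 for spindle genes, 0.07 for kinetochore genes, 0.20 for kinases and cyclins, -0.07 for the anaphase-promoting complex and -0.25 for S phase genes, beside -0.05 for all genes. With single RPC libraries left out these medians ran from 0.19 to 0.38, -0.11 to 0.25, 0.08 to 0.31, -0.15 to 0.10 and -0.33 to -0.08 in the same order, so those of the kinetochore list and the anaphase-promoting complex changed sign. All RPC fold changes use TMM scaling. Cenpa, for example, had 172 ± 64.9 CPM in high and 170 ± 116 CPM in low RPC libraries, but a log2 fold change of -0.55. How far the signs of the small medians and the size of the ribosomal -1.01 depend on this scaling, against scaling by totals, was not tested.

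The RPC calls rest on adjusted p-values just under the threshold, the smallest being 0.0368. Leaving out any of replicates 1, 3, 4, 5, 6, 7, 8, 11, 13, 18, 19 and 24 left 0 calls. There were 19 calls without replicate 20, 24 without replicate 15, 91 without replicate 14 or 21, 105 without replicate 23 and 124 without replicate 2. At an unadjusted p under 0.05, by contrast, 66 to 73 ribosomal proteins were lower whichever single RPC library was left out, where 618 to 808 of all genes were lower in the same fits and 692 of 8479 (8.16%) with every library.

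Single mitotic genes in RPC lay on both sides of 0, and none was called. Cks1b averaged 273 ± 139 in high and 116 ± 103 CPM in low RPC libraries (log2 fold change 0.82, SE 0.47, edgeR adjusted p 0.477). Ube2c averaged 143 ± 84.1 against 101 ± 61.5 CPM, with a log2 fold change of -0.10 after TMM scaling (SE 0.42, edgeR adjusted p 0.947). Pbk and Fzr1, which were above 0 in the KP1 contrast, had log2 fold changes of -0.70 (SE 0.61, edgeR adjusted p 0.674) and -1.02 (SE 0.61, edgeR adjusted p 0.504) in RPC. Both values rest on 1 low library. Pbk averaged 110 ± 89.0 CPM in high and 129 ± 223 CPM in low RPC libraries, but 68.0 ± 80.4 CPM in low ones without replicate 17 (795 CPM), where its log2 fold change was 0.46. Fzr1 averaged 39.7 ± 26.7 against 55.2 ± 86.1 CPM, and 32.3 ± 34.5 CPM in low libraries without replicate 16 (308 CPM), where its log2 fold change was -0.12. Kif2c was at 0.36 and Bub1b at -0.04 on the same scale, and with single libraries left out they ran from 0.03 to 1.13 and from -0.18 to 0.32. The ranges were 0.61 to 0.97 for Cks1b and -0.33 to 0.05 for Ube2c, and none of these 6 genes was called in any of the 24 fits.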

How the data were processed

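RNA was measured in 28 KP1 spheroid 10-cell libraries, 20 pool-and-split controls and 24 RPC libraries. The authors deposited expected counts per gene, not scaled between libraries (9.56% of values in the 28 libraries were not whole), for 31581 genes and 92 ERCC transcripts. Per the submitters' processing notes RSEM and Bowtie2 were used with GRCm38 and GRCh38.p12 named without roles. No sample column was left unused.

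Counts were rounded, ERCC rows left out of library totals, and CPM computed over genes. The members and gene lists were chosen with earlier results of these data known. The naming rule took called genes in order of adjusted p, called list members and the 3 most abundant uncalled members of each list. No gene was called in the main contrast, so genes with the smallest p-values were named after their values were seen.

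High and low libraries were compared with edgeR 4.0.16 (TMM, filterByExpr, robust quasi-likelihood test, R 4.3.3), calling genes at an adjusted p under 0.05. Alternatives used DESeq2 1.42.0, limma 3.58.1, other scalings and filters. Scaling by totals, leave-one-out fits of RPC and of the difference from the controls, list counts with single libraries left out, means without the highest library, library measures in the controls and in RPC, within ERCC classes or without the library of lowest ribosomal share, and the score over non-ribosomal genes were added after seeing the data. The score is given with no test. Library measures were compared with permutation tests in scipy 1.17.1 (100000 resamples, exact where a group was under 10). No pair of libraries looked like repeat sequencing (lowest chi-squared per degree of freedom 78.4). The fits were tested on simulated data. Reads carry no molecular identifiers in the sources used here. Longest transcripts and shared 31-mers come from GENCODE M21, promoters from RefSeq. Some genes are not reported here.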

Additional observations from a re-analysis of the deposited data

Results flagged for a closer look

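The high-low contrast differed between 10-cell and control libraries, by edgeR's test of the difference itself, for 3 genes. Rffl, an E3 ubiquitin ligase, had 3.40 ± 3.56 CPM in high and 16.5 ± 27.7 CPM in low 10-cell libraries, and 17.3 ± 16.0 and 0.0952 ± 0.238 CPM in the controls (adjusted p of the difference 0.007348). Tspyl4 had 0.785 ± 1.50 and 12.6 ± 24.4 CPM in 10-cell libraries and 6.55 ± 11.7 and 0.0747 ± 0.236 CPM in the controls (edgeR adjusted p 0.01792). Low replicate 13 held 83.9 CPM of it, and the low mean was 7.17 ± 13.7 CPM without that library. The adjusted p was 0.0520 without control replicate 17, and without 10-cell replicates 3, 13, 15, 17, 18, 20 or 26 the gene did not pass the filter on low counts. Tph1, the tryptophan hydroxylase of serotonin synthesis, had 3.96 ± 7.02 and 32.5 ± 62.5 CPM in 10-cell libraries and 10.8 ± 19.4 and 0.0460 ± 0.0990 CPM in the controls (edgeR adjusted p 0.0261). Low replicate 23 held 217 CPM of it, and without that library the low mean was 18.3 ± 34.5 CPM and the adjusted p 0.0844. The call was also lost without 10-cell replicate 20 and without control replicates 5, 7, 9, 10, 11, 12, 13, 14 or 15, with adjusted p up to 0.0669. Among the single-library removals, the adjusted p of Rffl ran from 0.000914 to 0.0214. All 3 were sparse: of the 10 low control libraries, 2 had counts of Rffl, 1 of Tspyl4 and 2 of Tph1. Of those 10 libraries 6 had at least 0.1% ERCC counts, and none of the high controls did, and the part of this in the 3 results was not tested.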

How the results depend on the processing

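For KP1 10-cell libraries the count of called genes, 0 in the main test, was 1315 without a filter (771 higher, 544 lower), 34 with DESeq2 (19 and 15), 1 with limma-voom (1 higher) and 37 with the score as a continuous covariate (1 and 36). It stayed at 0 with RLE scaling, scaling by totals, a mean CPM filter, a term for the ERCC class (at least or under 0.1%), libraries with less than 0.1% ERCC counts, genes detected as a covariate and the 9 outermost libraries on each side, and leaving out single libraries gave 0 to 1 calls (0 to 1 higher, 0 to 0 lower). The cause of these differences was not tested. In the controls the call was lost with the mean CPM filter (0 called, 0 higher) and with a term for the ERCC class (0 called, 0 higher). RPC gave 81 lower calls with RLE scaling and 114 calls with the mean CPM filter (14 higher, 100 lower), and 0 to 124 calls (0 to 10 higher, 0 to 114 lower) with single libraries left out. The contrast of 10-cell with control libraries gave 8 calls with the mean CPM filter (4 higher and 4 lower), and 1 to 7 calls (0 to 3 higher, 1 to 4 lower) with single libraries left out. The score's spread and level, given with no test, differed by 0.474 and -0.577 among libraries with less than 0.1% ERCC counts. Bub3, Cenpa, H2afz, Tpx2, Chga, Chgb, Pkm, Cdkn1a and Cdkn1b had another sign of the 10-cell log2 fold change under at least 1 alternative, with no call on either side. No paired analysis was possible because the high and low libraries come from 1 labelled group and share no replicate number. The depth of 3775229 to 5308787 counts covers amplified RNA of 10 cells, and counts without molecular identifiers do not give the number of molecules behind a gene of a few CPM.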
